A study of Mus musculus with 15 samples.

Results

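The genes described here are 8 ligands of the chemokine family, *Ccl3*, *Ccl4*, *Ccl5*, *Ccl6*, *Ccl9*, *Ccl22*, *Cxcl10*, and *Cxcl16*, among 21669 genes with a symbol in the RNA-seq table. They were picked by symbol, as ligands that B cells and myeloid cells make, with their levels and drug responses in these libraries already known. Their values are therefore given as a description, with errors and intervals and without a p-value. RNA was sequenced from 5 groups of C57BL/6J mouse B cells, all from females aged 6 to 9 weeks, with 3 libraries in each. Naive B cells (nB) were splenic cells left after magnetic depletion of CD43-bearing cells, and received neither stimulus nor drug. The other 4 groups were sorted after 3 days of culture of such cells, which were given the vehicle DMSO or 2 μM GSK343, an inhibitor of EZH2. Cells with the markers B220+GL7+CD138- were taken as activated B cells (actB), and those with CD138+ as plasmablasts (Pb). The stimulus was LPS, IL2, and IL5 by the study's methods, while for Pb with GSK343 the sample labels name IL6 in place of IL5, so that in Pb the drug and the cytokine cannot be told apart if these labels hold. The comparisons ask what inhibition of EZH2 changes in each cell type, and how transcripts differ between stages of plasma cell formation.

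Chemokines are small secreted proteins that draw leukocytes along a gradient through G protein-coupled receptors, and activated B cells release several of them to meet T cells and dendritic cells. EZH2 is the enzyme of the Polycomb repressive complex that places methyl groups on lysine 27 of histone H3, a mark of silent genes. CCL3, CCL4, and CCL5 attract monocytes and T cells, CCL22 binds CCR4 on T cells, CXCL10 binds CXCR3, CXCL16 binds CXCR6, and CCL6 and CCL9 are rodent ligands of CCR1.

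Between 19421830 and 26307413 reads were counted per library, so that 3 reads, the limit that a count of 0 allows, equal 0.114 to 0.154 RPM (reads scaled to a common total per library). RPKM is RPM per kilobase of the deposited gene length, and intervals and floors from reads cover counting error only. Columns nB 1 and nB 2 differed by less than sampling noise (chi-square of 0.00958 per degree of freedom, at least 3.58 for every other pair within a group) and were counted as 1 library, leaving n = 2 in nB. In each of the 4 cultured groups the replicate with number 2 was the highest for *Ccl5* and *Cxcl10* and the lowest for *Ccl3* and *Ccl4*. The study calls its RNA-seq replicates biological, and the labels do not say whether each is a separate mouse, so that p-values measure the spread between these libraries. Differences are of log2(RPKM + 0.25), fitted with limma on 14 libraries and 11299 genes, and a gene was called at a Benjamini-Hochberg adjusted p under 0.05 over all of these. B cell markers, led by *Cd79a* of the B cell receptor, summed to 3685 to 3820 RPKM in nB and 775 to 969 in Pb, where plasma cell markers such as *Jchain* summed to 4639 to 5186. Transcripts of other cells in nB are given below.

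*Ccl3* and *Ccl4*, which encode the macrophage inflammatory proteins 1α and 1β, were the ligands with the largest difference between GSK343 and DMSO, 6.49-fold to 7.52-fold in mean RPKM in both cell types. *Ccl3* (Entrez 20302; mm9 chr11:83461346-83462857, minus strand) stood at 0.843, 0.594, and 0.895 RPKM in the actB libraries with DMSO and at 6.14, 4.01, and 7.38 RPKM with GSK343. In Pb it was at 3.15, 2.70, and 4.55 RPKM with DMSO and at 27.4, 16.6, and 32.2 RPKM with GSK343. Every library with the drug lay above every library with the vehicle in the same cell type, and in each group replicate 2 was the lowest. The log2 difference was 2.54 (SE 0.27, 95% interval 1.96 to 3.12) in actB and 2.77 (SE 0.27, 2.18 to 3.35) in Pb. The effects differed by 0.23 between the cell types (interval -0.60 to 1.05).

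**Figure D1:**
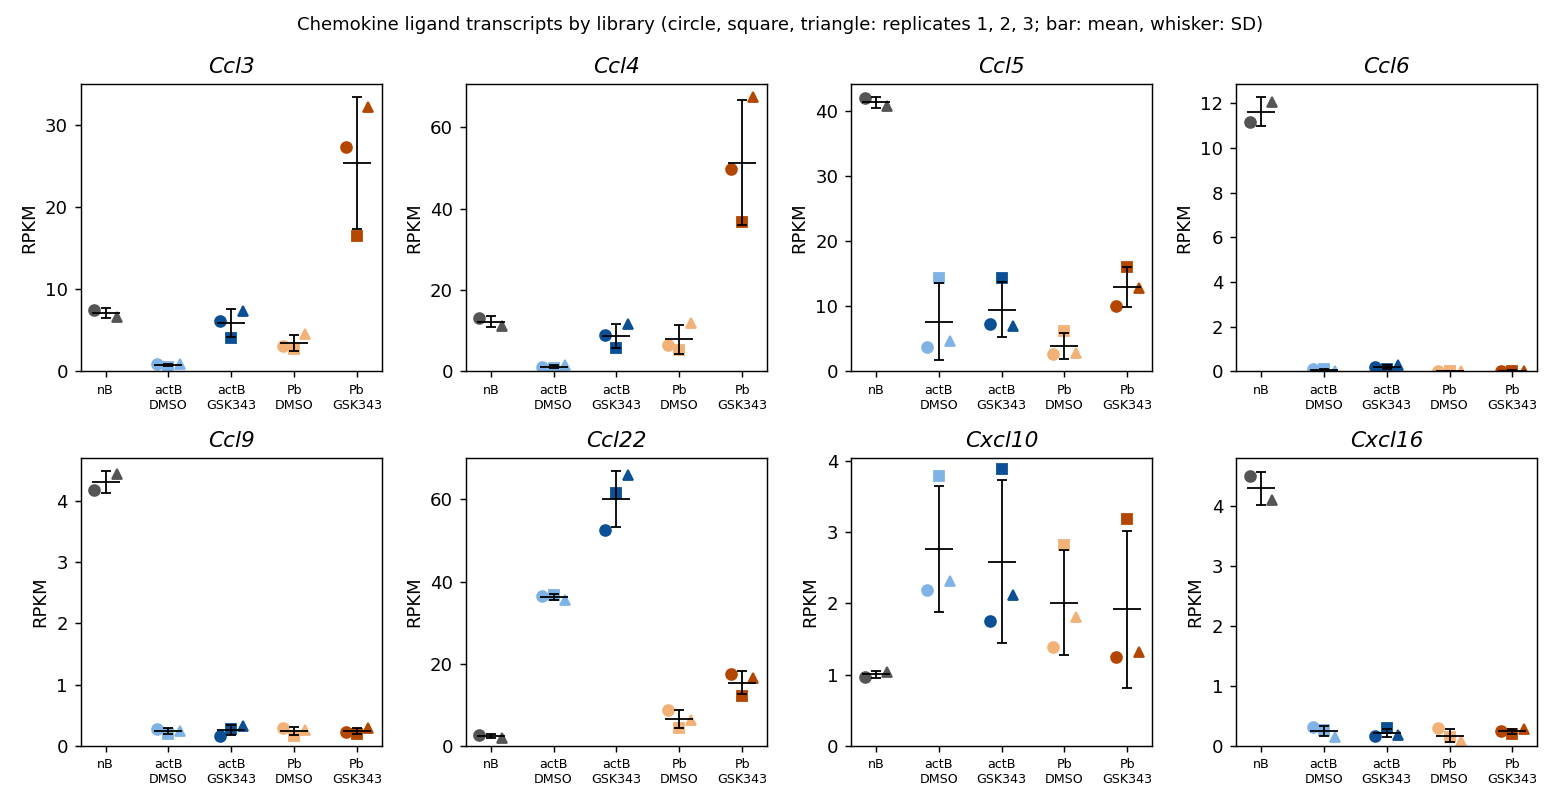
RPKM (linear axis) of the 8 ligands in each library of the 5 groups, with circles, squares, and triangles for replicates 1, 2, and 3, a bar for the group mean, and whiskers for 1 SD (n = 2 for nB, 3 otherwise, lower whisker stopped at 0). *Ccl3* and *Ccl4* were highest in Pb with GSK343, *Ccl22* in actB with GSK343, and *Ccl5*, *Ccl6*, *Ccl9*, and *Cxcl16* in nB, and replicate 2 of each cultured group was the highest for *Cxcl10*.

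*Ccl4* (Entrez 20303; mm9 chr11:83476086-83478185, plus strand) begins 13.2 kb from the near end of *Ccl3* and is read from the other strand. It was at 1.05, 0.858, and 1.59 RPKM in actB with DMSO, from 15 to 28 reads, and at 9.02, 5.71, and 11.6 RPKM with GSK343. In Pb it went from 6.53, 5.26, and 11.9 RPKM to 49.7, 36.8, and 67.4 RPKM. As for *Ccl3*, the libraries with and without the drug did not overlap and replicate 2 was the lowest of each group. The log2 difference was 2.65 (SE 0.33, interval 1.94 to 3.36) in actB and 2.70 (SE 0.33, 1.99 to 3.41) in Pb, and the 2 effects differed by 0.05 (-0.95 to 1.06). With 1 added to the RPKM the effects differed by 0.44, and by edgeR the difference was -0.18. Within the replicate numbers the ratio was 6.65-fold to 8.60-fold in actB and 5.65-fold to 7.62-fold in Pb for *Ccl4*, and 6.76-fold to 8.25-fold and 6.14-fold to 8.71-fold for *Ccl3*.

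Both genes were also lower in actB than in nB and higher in Pb than in actB. *Ccl3* was at 7.53 and 6.63 RPKM in nB, so that actB with DMSO was 2.85 lower on the log2 scale (interval of the difference -3.50 to -2.20). For *Ccl4*, at 13.2 and 11.2 RPKM in nB, the difference was -3.16 (-3.96 to -2.37). From actB to Pb, both with DMSO, the difference was 1.84 (1.25 to 2.42) for *Ccl3* and 2.47 (1.77 to 3.18) for *Ccl4*. Pb with DMSO stayed at -1.01 (-1.66 to -0.36) against nB for *Ccl3*, a call that was lost without nB replicate 1. For *Ccl4* it was at -0.69 (-1.48 to 0.10), not called, and called with the replicate block (-0.59), with all 15 columns, and without Pb DMSO replicate 3. In order of level, Pb with GSK343 was above nB without overlap, nB, actB with GSK343, and Pb with DMSO overlapped with their neighbours, and actB with DMSO was below all of them.

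**Figure D2:**
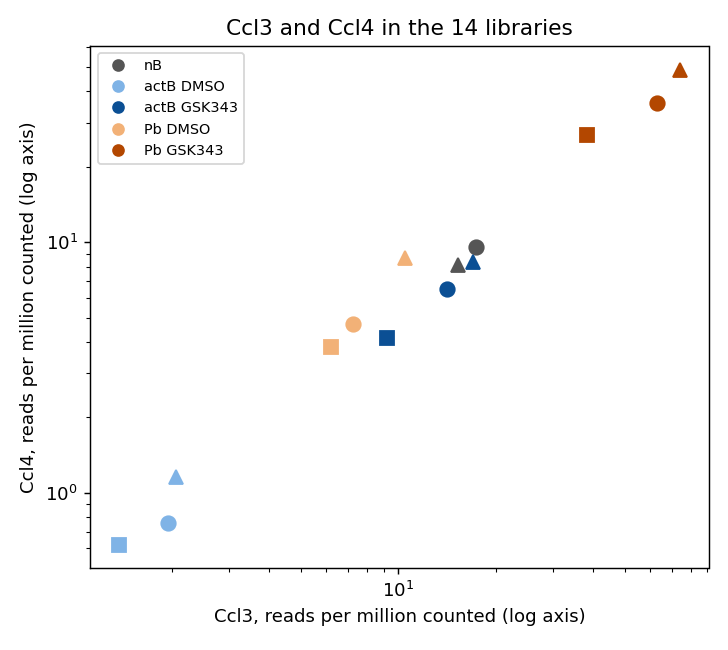
RPM of *Ccl3* (x, log axis) and *Ccl4* (y, log axis) in the 14 libraries, coloured by group, with circles, squares, and triangles for replicates 1, 2, and 3. The libraries lie along 1 band from actB with DMSO to Pb with GSK343, and in each cultured group the square is the lowest of the 3.

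The transcripts of the 2 genes moved together from library to library. Pearson's r of their log2 levels was 0.990 over the 14 libraries, which carry the group differences, and 0.935 over the deviations of the 12 cultured libraries from their group means. The ratio of *Ccl3* to *Ccl4* reads was between 1.21 and 2.56 in the 15 columns, with a median of 1.82. Together they took 2.64 ± 0.62 RPM (SD, n = 3) in actB with DMSO and 19.8 ± 6.05 RPM with GSK343, and 13.7 ± 4.79 RPM and 95.7 ± 29.3 RPM in Pb. Among 10391 genes compared, *Ccl4* was the most alike to *Ccl3* over the 14 libraries, followed by *Fyn* (r = 0.971) and *Golm1* (r = 0.942). Levels of *Ccl3* set beside other genes depend on its length, since the deposited 2304 bases compare with 766 exon bases in the mm9 annotation (GENCODE vM1).

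The upstream bases of *Ccl3* are shown because this gene and *Ccl4* had the largest differences with the drug. Capitals in it and in the sequences of *Ccl22* and *Cxcl10* below mark matches, on either strand, to 6 short motifs: the NF-κB consensus (kappaB), GAAANNGAA for interferon regulatory factors, TGANTCA for AP-1, AGNGAAAG as a core of the PRDM1 site, TTGCNNAA for C/EBP, and TATAAA. The RefSeq promoter table (GRCm38.p6, another build than the mm9 of the reads) holds 5 of the 8 genes, and has no entry for *Ccl4*, *Ccl5*, and *Cxcl16*. The 250 bases before the *Ccl3* start, at chr11:83649379-83649628 on the minus strand, hold 1 match, to the interferon regulatory factor letters, 39 to 31 bases before the start.
*Ccl3*: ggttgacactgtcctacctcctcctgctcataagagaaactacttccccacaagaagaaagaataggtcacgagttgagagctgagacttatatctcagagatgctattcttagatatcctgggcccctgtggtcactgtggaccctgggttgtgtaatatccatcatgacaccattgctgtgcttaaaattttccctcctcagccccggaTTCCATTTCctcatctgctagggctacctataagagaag
Of 32851 promoter windows of this length in the table, 7.13% hold that motif, and 7.25% hold kappaB, 6.75% AP-1, 7.30% the PRDM1 core, 9.56% C/EBP, and 12.4% TATAAA.

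*Ccl5* (Entrez 20304; mm9 chr11:83339280-83344020, minus strand), also known as RANTES, was highest in nB, at 41.8 and 40.6 RPKM. With DMSO it was at 3.74, 14.4, and 4.66 RPKM in actB and at 2.61, 6.26, and 2.81 RPKM in Pb. Replicate 2 was the highest library in each cultured group. With GSK343 it was at 7.23, 14.3, and 6.89 RPKM in actB, overlapping with the vehicle, and at 9.98, 16, and 12.8 RPKM in Pb, all above the vehicle.

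The log2 difference of *Ccl5* with GSK343 was 0.48 (SE 0.46, -0.52 to 1.48) in actB and 1.75 (SE 0.46, 0.75 to 2.75) in Pb, and the effects differed by 1.27 (-0.14 to 2.68). It was 0.72 in actB and 1.97 in Pb once replicate 2 was left out of every cultured group. The call in Pb was lost when any 1 of Pb DMSO replicates 1 and 3 or of the 3 Pb GSK343 libraries was left out, with differences of 1.54 to 1.92 in these 5 fits. Against nB, actB with DMSO differed by -2.65 (-3.77 to -1.54) and Pb with DMSO by -3.43 (-4.54 to -2.32). Pb differed from actB by -0.78 (-1.77 to 0.22), which was called only with the replicate number as a block, without Pb DMSO replicate 2, or without number 2 altogether.

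*Ccl22* (Entrez 20299; mm9 chr8:97269490-97275599, plus strand), a ligand that attracts CCR4-bearing helper and regulatory T cells, had the highest level of the 8 in actB. It went from 2.73 and 1.98 RPKM in nB to 36.5, 36.8, and 35.5 RPKM in actB with DMSO, and was at 8.83, 4.32, and 6.37 RPKM in Pb with DMSO. The 5 groups did not overlap with their neighbours in level. actB with DMSO was 3.83 above nB on the log2 scale (SE 0.24, 3.31 to 4.34), Pb was 2.49 below actB (interval of the difference -2.95 to -2.03), and Pb was 1.33 above nB (0.82 to 1.85).

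With GSK343, *Ccl22* was at 52.6, 61.7, and 65.9 RPKM in actB and at 17.4, 12.2, and 16.5 RPKM in Pb. All 3 libraries of each group were above those with DMSO, by 1.44-fold to 1.85-fold within the replicate numbers in actB and by 1.97-fold to 2.82-fold in Pb. The log2 difference was 0.72 (SE 0.21, 0.26 to 1.18) in actB, which was not called, and 1.25 (SE 0.21, 0.79 to 1.71) in Pb, which was. In actB the difference was called with the replicate number as a block (0.72 again) and in 11 other of 27 alternatives, among them edgeR and DESeq2, with 0.65 to 0.81 over all of them. The effects differed by 0.53 between the cell types (-0.12 to 1.18).

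The upstream bases of *Ccl22* are shown as those of the ligand with the largest rise from nB to actB. None of the 6 motifs was found in the 250 bases at chr8:94745434-94745683, plus strand, which says only that these letters are not in this window.
*Ccl22*: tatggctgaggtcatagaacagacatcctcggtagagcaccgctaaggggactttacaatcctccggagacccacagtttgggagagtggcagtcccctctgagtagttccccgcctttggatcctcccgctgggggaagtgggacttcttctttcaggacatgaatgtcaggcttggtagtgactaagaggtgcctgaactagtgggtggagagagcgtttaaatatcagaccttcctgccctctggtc
Beside *Ccl22* lie *Ccl17*, which encodes the other CCR4 ligand, and *Cx3cl1*, which encodes fractalkine, and neither passed the filter on low values (RPKM of at least 1 in at least 3 columns). *Cx3cl1* was at 0.26 ± 0.045 RPKM in actB with DMSO and 0.49 ± 0.093 RPKM with GSK343 (SD, n = 3), from 17 to 24 and from 32 to 43 reads per library. For *Ccl17*, 1 to 3 reads were counted per actB library with DMSO and 3 to 6 with GSK343, too few for a difference to be read.

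*Cxcl10* (Entrez 15945; mm9 chr5:92775664-92777915, minus strand), an interferon-induced ligand of CXCR3, was low in every group and did not separate by drug. It was at 0.97 and 1.04 RPKM in nB. With DMSO and with GSK343 it was at 2.18, 3.78, and 2.32 RPKM and at 1.75, 3.88, and 2.12 RPKM in actB. The Pb libraries were at 1.39, 2.82, and 1.81 RPKM with DMSO and at 1.24, 3.18, and 1.32 RPKM with GSK343. All 12 cultured libraries lay above nB, and replicate 2 was the highest in each of the 4 groups.

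The log2 difference of *Cxcl10* with GSK343 was -0.12 in both cell types (-0.90 to 0.66 in each). In actB with DMSO it was 1.23 above nB (0.36 to 2.10), a call that was lost without either nB library. In Pb with DMSO the difference from nB was 0.80 (-0.07 to 1.67), and it was called in 7 of 27 alternatives, among them the replicate block (0.76), DESeq2, and the fit without number 2 (0.55). Pb differed from actB by -0.43 (-1.20 to 0.35), called with the replicate block and without number 2. The *Art3* gene overlaps *Cxcl10* on the plus strand, and whether strand was used in counting is not stated.

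Deviations of *Cxcl10* from the group means over the 12 cultured libraries ran with those of *Ccl5* (r = 0.817) and against those of *Ccl3* (r = -0.824), and these points share the replicate numbers and their libraries. The genes closest to *Cxcl10* by these deviations were *Rabac1* (r = 0.991), *Csprs*, and *Plbd2* (both r = 0.982), and closest to *Ccl5* was *Cmpk2* (r = 0.985). Over all 14 libraries *Cxcl10* was most like *Jak3* (r = 0.923) and *Ccl5* most like *Lpar6* (r = 0.956). The upstream bases of *Cxcl10*, at chr5:92348890-92349139 on the minus strand, are shown because 3 motif classes match in them: kappaB 159 to 150 bases before the start and at 2 overlapping places from 104 to 94, interferon regulatory factor letters from 213 to 205, and AP-1 from 74 to 68.
*Cxcl10*: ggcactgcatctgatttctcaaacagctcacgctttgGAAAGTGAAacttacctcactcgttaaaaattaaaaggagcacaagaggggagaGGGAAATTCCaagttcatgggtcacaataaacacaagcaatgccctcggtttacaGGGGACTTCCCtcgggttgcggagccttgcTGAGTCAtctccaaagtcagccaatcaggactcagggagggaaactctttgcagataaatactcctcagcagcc
A match is a description of the sequence, and binding was not measured in these libraries.

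**Figure D3:**
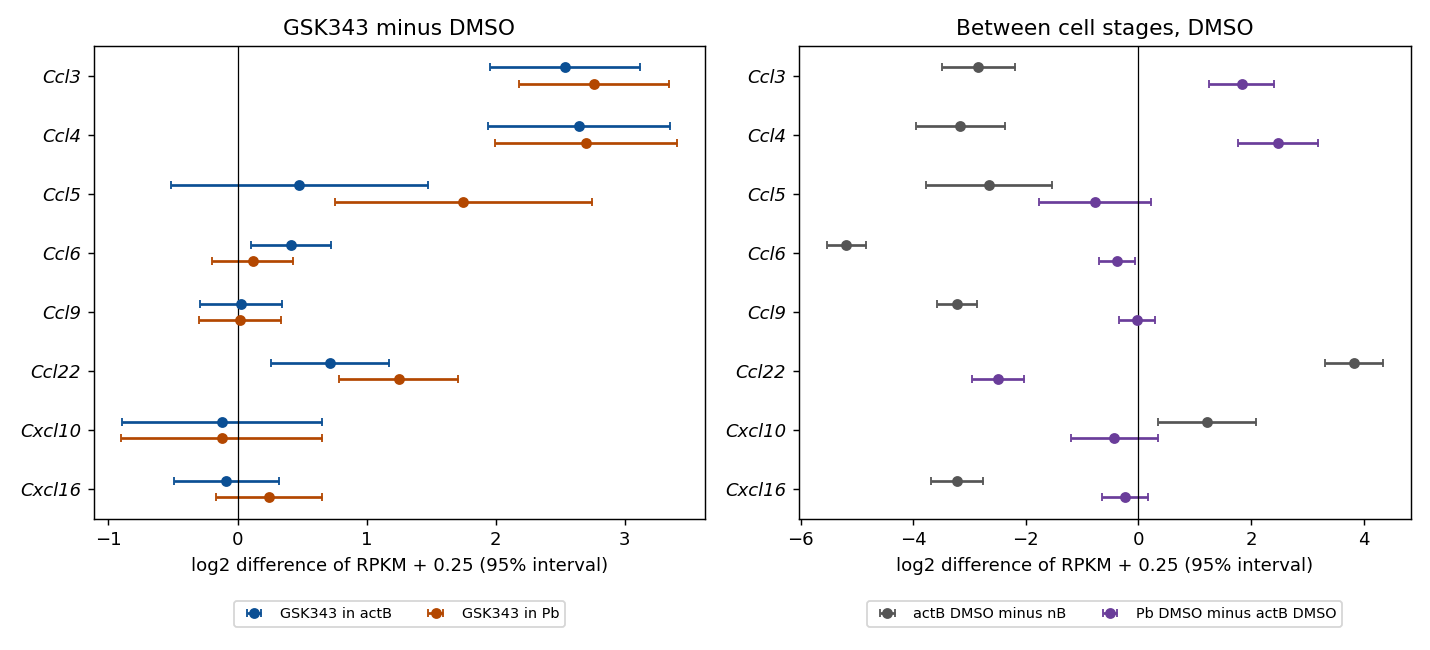
Log2 differences of RPKM + 0.25 (x) for each ligand (y) with 95% intervals from limma, for GSK343 minus DMSO in actB (blue) and Pb (orange) on the left, and for actB minus nB (grey) and Pb minus actB (purple), all with DMSO where cultured, on the right. *Ccl3* and *Ccl4* lie between 2.54 and 2.77 in both cell types. For the drug, the intervals of *Cxcl10*, *Ccl9*, and *Cxcl16* include 0 in both cell types, as do those of *Ccl5* in actB and *Ccl6* in Pb. The interval of *Ccl6* in actB lies above 0 but rests on 1 to 9 reads per library.

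*Ccl6*, *Ccl9*, and *Cxcl16* were nB transcripts that nearly vanished in culture. None of the 12 cultured libraries reached 1 RPKM for any of the 3, and they passed the filter through nB alone, so that a lower level in culture follows from the filter and is given as a description. *Ccl6* (Entrez 20305; mm9 chr11:83401384-83406589, minus strand) had 369 and 397 reads in nB (11.2 and 12.1 RPKM). The actB libraries held 3, 4, and 1 reads with DMSO and 7, 4, and 9 with GSK343, and Pb held 0, 0, and 0 with DMSO and 1, 1, and 0 with GSK343. Relative to nB, its level was 150-fold lower (counting interval 75.8 to 349) in actB with DMSO and 62.1-fold lower (39.9 to 102) with GSK343. In Pb with DMSO it was at least 108-fold lower, taking 3 reads per library as the floor, and in Pb with GSK343 the ratio was 519 (143 to 4294), from 2 reads. No direction with the drug was read from so few reads.

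*Ccl9* (Entrez 20308; mm9 chr11:83386421-83392138, minus strand) was at 4.18 and 4.43 RPKM in nB and between 0.16 and 0.33 RPKM in all cultured libraries, from 10 to 23 reads. With GSK343 the log2 difference was 0.03 (-0.29 to 0.35) in actB and 0.02 (-0.30 to 0.34) in Pb, and the 4 cultured groups overlapped. The level in actB with DMSO was 17.9-fold lower than in nB, and that in Pb 18.2-fold lower. *Cxcl16* (Entrez 66102; mm9 chr11:70267485-70273486, minus strand), a ligand made as a membrane protein and shed by the protease ADAM10, was at 4.49 and 4.10 RPKM in nB and between 0.079 and 0.32 RPKM in culture, from 5 to 23 reads. Its mean was 17.6-fold lower in actB with DMSO and 25.1-fold lower in Pb, and GSK343 differed from DMSO by -0.09 (-0.50 to 0.32) in actB and 0.24 (-0.17 to 0.65) in Pb. The genes E230016K23Rik and *Zmynd15* overlap *Ccl6* and *Cxcl16* on the other strand.

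The bases before *Ccl6* and *Ccl9* are shown because these neighbours, 9.25 kb apart, had like patterns over the 14 libraries (r = 0.980). That r carries the step from nB to culture. Over the deviations of the 12 cultured libraries from their group means, r was -0.054. *Cxcl16*, which lies outside the cluster, was also alike over the 14 libraries, with r = 0.972 to *Ccl6* and 0.983 to *Ccl9*. The windows of *Ccl6* and *Ccl9* share a run of 13 bases, in capitals, which lies 55 to 43 bases before the start of *Ccl6* and 14 to 2 before that of *Ccl9*. The longest shared run of every other pair of the 5 windows was 6 to 10 bases. The 120 bases next to each start are at chr11:83593088-83593207 for *Ccl6* and chr11:83578637-83578756 for *Ccl9* (GRCm38.p6, minus strand).
*Ccl6*: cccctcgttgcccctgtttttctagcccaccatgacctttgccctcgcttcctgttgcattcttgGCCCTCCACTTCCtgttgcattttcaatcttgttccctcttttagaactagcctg
*Ccl9*: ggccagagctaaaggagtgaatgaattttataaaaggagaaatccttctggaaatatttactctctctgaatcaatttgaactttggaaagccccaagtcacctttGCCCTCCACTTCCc
In the full windows of 250 bases, *Ccl6* had 1 match, to the PRDM1 core, and *Ccl9* matched kappaB and AP-1 once each and TATAAA at 3 places, 2 of them overlapping.

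Markers of other cells stood with these transcripts in nB. The 19 myeloid markers found in the table, of 20 listed, summed to 258 to 321 RPKM in nB, led by *Lyz2* (lysozyme) at 166 RPKM, and to 9.24 to 21.0 RPKM in culture. *Csf1r*, the receptor for the macrophage growth factor, was at 13.0 RPKM in nB and at most 0.048 RPKM in any cultured library. Not all went this way. *Itgam* was at 4.02 RPKM in nB and 4.27 RPKM in actB with DMSO. *Mrc1* was at 4.14 RPKM in nB, 0.21 RPKM in actB with DMSO, and 4.87 RPKM in Pb with DMSO. T and NK cell markers summed to 50.5 to 54.8 RPKM in nB and 5.98 to 11.2 in culture, and 13 of 13 were called lower in actB, as were 12 of the 13 myeloid markers tested, where 36.3% of all genes were. Of each list, 9 passed the filter through nB alone, so that their lower level in culture follows from the filter. Of the genes left, 4 and 3 were called lower. Among these, *Gzma* and *Lyz2* reached 1 RPKM in 1 cultured library and *Prf1* in 2. They too would not have passed without nB, and their lower level is given as a description. Dendritic cell markers summed to 62.8 to 75.2 RPKM in nB and 38.9 to 65.4 RPKM in actB with DMSO. Of 7 tested, *Flt3* rose there from 12.2 to 47.2 RPKM, and the 6 others, called lower, passed the filter through nB alone. Over the 14 libraries, the genes most like *Ccl6* were *Tcf7*, *Ppap2b*, and *Cd7* (r = 0.994 to 0.995), and those most like *Ccl9* were *Gpr35*, *Ncr1*, and *Klra2* (r = 0.993 to 0.996). Those most like *Cxcl16* were *Havcr2*, *Arl8a*, and *Rgs1* (r = 0.987 to 0.988). These r carry the step between nB and culture, which any gene found almost in nB alone would share. The part of such cells in the nB levels of the 8 ligands was not tested, and fewer cells of a type and less RNA per cell cannot be told apart in bulk samples.

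For the drug, the same markers were set beside *Ccl3* and *Ccl4*. Of all genes tested, 8.2% were called higher and 2.16% lower with GSK343 in actB, and 7.9% and 5.0% in Pb. The myeloid sum was 10.9 to 12.8 RPKM in actB with DMSO and 15.7 to 21.0 with GSK343, and 2 of 13 tested markers rose, *Itgam* from 4.27 to 9.95 RPKM (limma adjusted p = 0.0038) and *Adgre1* from 0.15 to 0.44 RPKM (adjusted p = 0.016). In Pb the sum was 9.24 to 13.3 RPKM and 9.69 to 11.6 RPKM, and limma, edgeR, and DESeq2 each called 0 of 13 (1 at an unadjusted p under 0.05). *S100a8* and *S100a9*, which mark neutrophils and monocytes, and *Csf1r*, *Csf3r*, *Fcgr1*, *Mpo*, *Elane*, *Clec7a*, *Msr1*, and *Mertk* had means under 0.1 RPKM in all 4 cultured groups. Others of the list did not. With DMSO and with GSK343, *Cd68* was at 6.12 and 5.44 RPKM in actB and at 4.79 and 3.88 RPKM in Pb. *Mrc1* was at 0.21 and 0.42 RPKM in actB and at 4.87 and 4.93 RPKM in Pb. Neither was called with the drug. Of 13 T and NK cell markers limma and edgeR called 0 with the drug in either cell type (2 in actB and 1 in Pb at an unadjusted p under 0.05), and DESeq2 called 1 in actB and 0 in Pb. Of 7 dendritic cell markers tested 1 rose, *Itgax* in actB, from 0.034 to 0.19 RPKM (adjusted p = 0.015). Pb with GSK343 also differed from Pb with DMSO in *Sdc1*, which encodes CD138, from 29.7 to 55.3 RPKM (log2 difference 0.89, adjusted p = 0.00058), while *Irf4*, a regulator of plasma cells, went from 371.9 to 312.9 RPKM (-0.25, adjusted p = 0.022), so that of 7 plasma cell markers 1 rose and 1 fell. In actB 2 of these rose, *Sdc1* from 0.67 to 0.97 RPKM (adjusted p = 0.042) and *Jchain* from 177.4 to 230.7 RPKM (adjusted p = 0.028). Of 8 B cell markers 3 fell in Pb, *Pax5*, which holds B cell identity, from 29.1 to 13.8 RPKM (-1.11, adjusted p = 0.0022), *Ms4a1*, and *Ebf1*, and limma, edgeR, and DESeq2 called 0 in actB (0 at an unadjusted p under 0.05). Their part in the ligand differences was not tested.

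Counted over the 8 ligands, 2 were called higher with GSK343 in actB (*Ccl3* and *Ccl4*) and 0 lower, where 8.2% of all genes tested were called higher and 2.16% lower. In Pb, 4 were called higher (*Ccl3*, *Ccl4*, *Ccl5*, and *Ccl22*) and 0 lower, against 7.9% and 5.0% of all genes. None of the 8 was called by limma, edgeR, or DESeq2 for a difference between the 2 effects, and 0 had an unadjusted p under 0.05, where 0.0974% of genes were called higher in Pb and 0.15% lower. Since the 8 were chosen with these responses known, nothing is read from the counts. The median log2 difference of the 8 was 0.45 in actB and 0.75 in Pb, and that of all genes 0.03 and 0.00.

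Between stages, 2 of the 8 were called higher and 6 lower in actB with DMSO than in nB, where 40.9% and 36.3% of genes were called. Pb with DMSO had 2 higher and 2 lower than actB, against 27.3% and 42.4%, and 1 of the lower, *Ccl6*, rests on 8 reads against 0. Against nB, 1 was higher and 5 lower in Pb, beside 39.5% and 41.1%. Among the lower in both comparisons with nB are *Ccl6*, *Ccl9*, and *Cxcl16*, which passed the filter through nB alone. Their direction follows from the filter, and nothing is read from these counts. The median difference of all genes was -0.12 from actB to Pb. Whether this is a shift of the scale or a change of the transcripts was not tested. The share of calls that were higher depends on scaling: it was 79.1% for GSK343 in actB, 65.1% with median scaling and 61.6% with quantile normalization, 39.2%, 49.4%, and 47.1% from actB to Pb, and 39.3%, 63.6%, and 50% of the few calls for the difference between the effects.

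Summed per library over the 8 ligands, nB gave 96.1 ± 3.16 RPM (SD, n = 2) and actB with DMSO 79.9 ± 5.28 RPM (n = 3), while the makeup changed from *Ccl5*, *Ccl6*, and *Ccl3* to *Ccl22*. With GSK343, actB gave 141 ± 15.1 RPM, all 3 libraries above those with DMSO. Pb gave 33.1 ± 4.52 RPM with DMSO and 136 ± 30.7 RPM with GSK343, in which *Ccl3* alone took 58.5 RPM.

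Of the other chemokine ligands, 31 of 33 listed were in the table and only 5 passed the filter, *Ccl25*, *Pf4*, *Ppbp*, *Cxcl9*, and *Xcl1*. None of these was called with GSK343 by limma, edgeR, or DESeq2 in either cell type, 0 had an unadjusted p under 0.05, and with no filter on low values 1 ligand was called, *Cx3cl1* in actB. *Ccl25*, which attracts CCR9-bearing cells to the gut, rose from 1.15 ± 0.24 RPKM (SD, n = 2) in nB to 3.50 ± 0.52 RPKM (n = 3) in actB with DMSO (log2 difference 1.43, SE 0.16, adjusted p = 3.2e-06) and was at 3.09 RPKM in Pb. The other 4 passed the filter through nB alone, so that their lower level in culture follows from the filter and is given as a description. Among them, *Xcl1*, made by NK and T cells, was at 5.12 RPKM in nB and 0.082 RPKM in actB with DMSO, and *Cxcl9*, which lies 18.6 kb from *Cxcl10* and shares its receptor, at 2.70 and 0.086 RPKM. Without a filter, 12 of the other ligands were called between nB and actB, in place of 5.

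**Figure D4:**
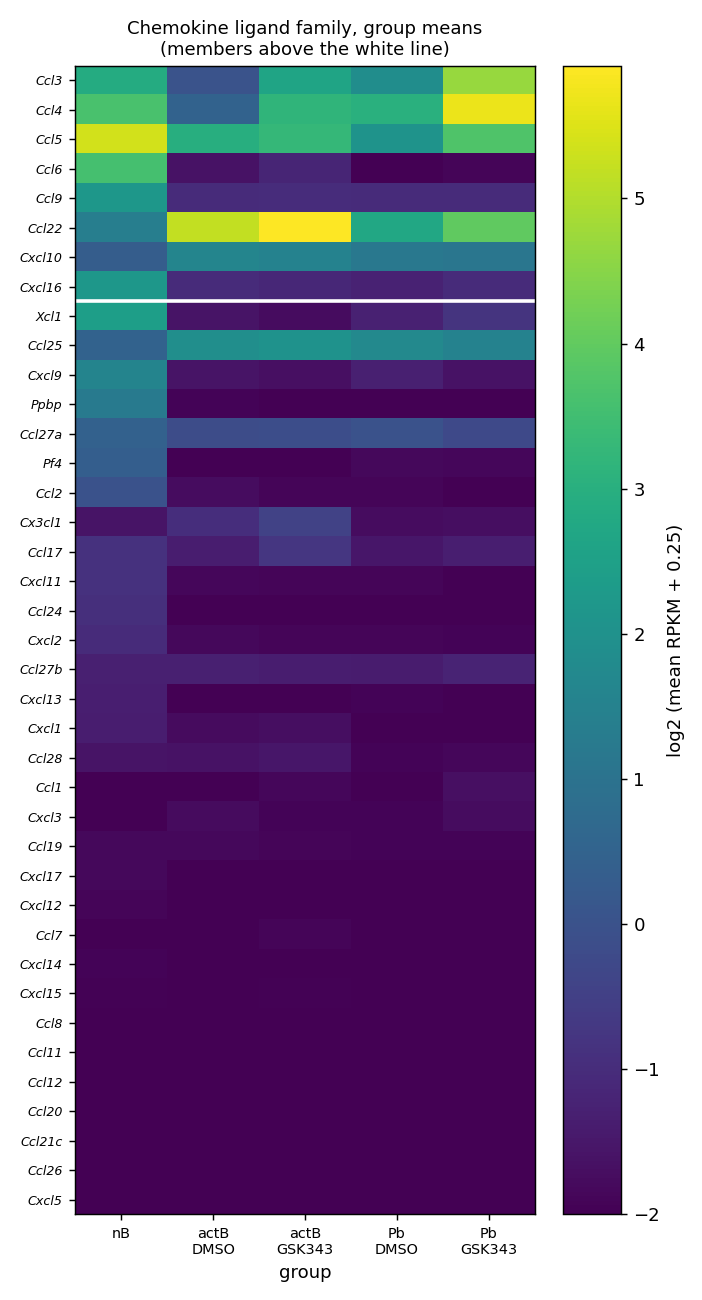
Mean level of each chemokine ligand (rows) in the 5 groups (columns), as log2 of mean RPKM + 0.25 on the colour scale, with the 8 genes described here above the white line and the 31 others below it, by highest group mean. In culture, *Ccl25* was the only one of the 31 with a group mean of at least 1 RPKM, and *Ccl22*, *Ccl4*, and *Ccl3* reached the highest means of the family.

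Receptors were compared as well, and limma called neither *Ccr1*, *Ccr3*, *Cxcr3*, nor *Cxcr6* with GSK343 (adjusted p of 0.21 to 0.85 in actB and 0.74 to 0.996 in Pb). *Ccr1*, the receptor of CCL6 and CCL9, was at 3.61 RPKM in nB, 0.35 and 0.62 RPKM in actB with DMSO and with GSK343, and 0.064 and 0.065 RPKM in Pb. It reached 1 RPKM in 1 cultured library and would not have passed the filter without nB, so that its lower level in culture is a description. *Ccr3*, a receptor of eosinophils that binds CCL5, was at 2.93 RPKM in nB and 0.038 RPKM in actB with DMSO, having passed the filter through nB alone, and was at most 0.0165 RPKM as a mean in the other cultured groups.

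*Cxcr3*, the receptor of CXCL10, was at 2.32 ± 0.64 RPKM (SD, n = 2) in nB and 19.5 ± 10.4 RPKM (n = 3) in actB with DMSO (log2 difference 2.84, SE 0.52, limma adjusted p = 0.00029). In Pb with DMSO it was at 2.22 ± 1.11 RPKM, lower than in actB (adjusted p = 0.00010). With GSK343 it was at 20.9 and 3.04 RPKM in actB and Pb (adjusted p = 0.85 and 0.74). *Ccr4*, the receptor of CCL22, did not pass the filter, with means of 0.10 RPKM in nB, 0.35 and 0.82 RPKM in actB with DMSO and with GSK343, and 0.15 and 0.32 RPKM in Pb. *Cxcr6*, which also passed through nB alone, was at 1.55 RPKM in nB, 0.26 RPKM in actB with DMSO, and 0.19 to 0.41 RPKM in the other cultured groups.

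Of 18 chemokine receptors tested, 3 rose with GSK343 in actB (*Ccr6*, *Ccr9*, and *Ccr10*), and in Pb 2 rose (*Ccr9* and *Ccr10*) and 1 fell (*Cxcr5*), beside 8.2% of all genes called higher in actB, and 7.9% higher and 5.0% lower in Pb. The replicate block gave 8 calls in actB and 6 in Pb, where calls over all genes rose from 1170 to 2248 and from 1458 to 2626. *Ccr10*, a receptor of plasma cells that home to mucosa, went from 2.63 ± 0.30 to 12.1 ± 0.90 RPKM in Pb (SD, n = 3, log2 difference 2.10, SE 0.12, adjusted p = 2.6e-06). *Ccr6* went from 54.5 ± 10.8 to 76.0 ± 6.67 RPKM in actB (0.49, SE 0.13, adjusted p = 0.036), and *Cxcr5*, which guides B cells into follicles, from 49.6 ± 5.52 to 37.0 ± 6.51 RPKM in Pb (-0.43, SE 0.13, adjusted p = 0.044). Of 6 genes that process ligands, limma called *Adam10* with the drug in Pb, from 36.5 to 41.6 RPKM (adjusted p = 0.041), and 0 in actB (2 at an unadjusted p under 0.05). edgeR called 0 of the 6 in both cell types, and DESeq2 called 1 in actB and 2 in Pb.

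Of 19 genes of the inflammatory response tested, 1 was called with GSK343 in actB, *Il10*, which encodes a cytokine that restrains inflammation, and it fell from 18.4 ± 4.96 to 9.71 ± 0.93 RPKM (SD, n = 3, log2 difference -0.87, SE 0.23, adjusted p = 0.029). Over all genes, 8.2% were called higher and 2.16% lower there. In Pb limma, edgeR, and DESeq2 each called 0 of 19 (5 at an unadjusted p under 0.05). From actB to Pb, both with DMSO, 14 of 19 fell and 2 rose, where 42.4% of all genes fell and 27.3% rose. *Tnf* fell from 13.2 to 1.53 RPKM (limma adjusted p = 1.1e-07) and *Lta*, which encodes lymphotoxin α, from 16.8 to 1.62 RPKM (adjusted p = 5.9e-06). In the other direction, the mean of *Il10* was 18.4 RPKM in actB and 79.4 RPKM in Pb, and that of *Zfp36* 55.1 and 178.3 RPKM.

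On chromosome 11, *Ccl5*, *Ccl9*, *Ccl6*, *Ccl3*, and *Ccl4* lie in this order within 138.9 kb of mm9 (83339280 to 83478185), and their differences with GSK343 were not alike, at 1.75 for *Ccl5*, 0.02 for *Ccl9*, 2.77 for *Ccl3*, and 2.70 for *Ccl4* on the log2 scale in Pb, where *Ccl6* had at most 1 read per library. The 2 genes with the largest differences are next to each other, 54.8 kb from *Ccl6*. Genes within 100 kb of any of the 8 numbered 29, of which 16 were tested, in a window chosen after the data were seen. Over all genes, 8.2% were called higher and 2.16% lower with GSK343 in actB, and 7.9% and 5.0% in Pb. With GSK343, 1 fell in actB, *Sdad1*, 36.6 kb from *Cxcl10* (28.5 to 24.1 RPKM, adjusted p = 0.045), and 2 rose in Pb, *Scarb2*, 94.98 kb from *Cxcl10* (6.48 to 9.79 RPKM, adjusted p = 0.036), and *Coq9*, 86.6 kb from *Ccl22* (28.3 to 33.4 RPKM, adjusted p = 0.012). *Heatr6*, 89.0 kb from *Ccl4*, and *Taf15*, 19.0 kb from *Ccl5*, were the tested neighbours of the cluster, and neither was called, with differences of -0.14 and -0.07 in actB and -0.05 and -0.18 in Pb.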

How the data were processed

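The authors mapped 50 bp paired-end poly(A) RNA-seq reads (KAPA stranded kit, 500 ng of RNA) to mm9 with TopHat2, counted those overlapping exons of each Entrez gene of the UCSC Known Gene set with GenomicRanges. The table deposited by the authors gives RPM, reads scaled to the same total in every column, and 100% of values were whole reads within 0.0011 RPM. Strand use in counting is not stated. Genes without a symbol, 92 in number, held at most 0.0905% of reads.

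RPKM was computed as RPM per kilobase of the deposited length. Genes with at least 1 RPKM in at least 3 of 15 columns were fitted on log2(RPKM + 0.25) with limma 3.58.1 in R 4.3.3 (eBayes with a trend, all groups, two-sided, Benjamini-Hochberg adjustment), after testing on simulated data. The nB columns 1 and 2 were averaged, a choice made with the data in view. The members and lists were chosen with earlier results of these data known. Named were all 8 members, receptors of their products (1 result is not reported here), up to 4 genes of each other list and comparison by size of difference among those called (group mean of 2 RPKM or more), and the 3 genes most alike to a member; other genes named were chosen after their values were seen.

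Replicate numbers (m1 to m3 in the labels) pair the samples. The main fit held no term for them, so that its errors and calls leave this pairing out. With the replicate number as a block, more genes were called in each comparison. Deviations from group means correlated between cultured groups with r between 0.158 and 0.502 (number 1), 0.435 and 0.713 (number 2), and 0.219 and 0.356 (number 3) over 6 pairs each, whereas r ran from -0.603 to 0.370 where the numbers differed. The labels do not say whether a number is a mouse or a pool of mice. Alternatives were pseudocounts of 1 and 0.05, other filters, median scaling, quantile normalization, no trend, the compared groups alone, the replicate block, all 15 columns, each library left out, edgeR 4.0.16 and DESeq2 1.42.0 on the recovered reads, and, added after the data were seen, number 2 left out of every cultured group. On recovered reads edgeR called 1152 genes with GSK343 in actB and 1418 in Pb.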

Additional observations from a re-analysis of the deposited data

Results flagged for a closer look

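Of the genes tested beside the ligands, *Ccr10* stood out for a difference between cell types: its log2 difference with GSK343 was 0.96 larger in Pb than in actB (SE 0.17, interval 0.59 to 1.32, limma adjusted p = 0.043 for the interaction term). By edgeR and DESeq2, 0 of the 18 receptors tested were called for this difference. The limma call of *Ccr10* held in 9 of 27 alternatives and in 2 of the 14 fits that left out 1 library, those without actB DMSO replicate 2 and without Pb GSK343 replicate 2, with differences of 0.84 to 1.04 over the 14. Its level went from 0.36 ± 0.092 to 1.10 ± 0.077 RPKM in actB and from 2.63 ± 0.30 to 12.1 ± 0.90 RPKM in Pb (SD, n = 3). The Pb libraries with GSK343 are those labelled with IL6 in place of IL5, and the part of the cytokine cannot be told apart from that of the cell type.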

How the results depend on the processing

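Of 1296 log2 differences of the 8 ligands under alternatives, 1235 stayed within 1 SD of the replicates, 61 moved further, and 0 changed the sign of a called value. Many of these could not move. Other filters, no trend, the compared groups alone, and leaving out a library of neither compared group return the same difference. The replicate block does so too between cultured groups, so that these counts do not measure how firm the differences are. With the replicate block, 3 ligands were called in actB with GSK343 in place of 2, 4 in Pb as before, 6 in place of 4 between Pb and actB, and 8 in place of 6 between Pb and nB. Of all 11299 genes, the block called 8523 in place of 7877 between Pb and actB, and 9567 in place of 9104 between Pb and nB. Leaving number 2 out of every cultured group gave 5 in actB (*Ccl5*, *Ccl6*, and *Ccl22* added) and 1 for the difference between the effects (*Ccl5*) in place of 0. Over all genes that fit called 1740 in place of 1170 in actB, and 146 in place of 28 for the difference. With no filter on low values, 1 other ligand was called with GSK343 in actB, 12 between actB and nB, 2 between Pb and actB, and 13 between Pb and nB, in place of 0, 5, 0, and 5, and at an RPKM of at least 3 the counts against nB were 2 and 2, since more or fewer genes are tested. The *Ccl3* call in Pb against nB was lost without nB replicate 1. Over the whole table the block raised the calls from 1170 to 2248 in actB, from 1458 to 2626 in Pb, and from 28 to 139 for the difference between the effects, and DESeq2 called 124 of the last. Leaving out 1 library took them as low as 608 in actB (without actB DMSO replicate 1), 690 in Pb (without Pb GSK343 replicate 3), and 0 for the difference between the effects (without actB DMSO replicate 1 or 3, actB GSK343 replicate 3, Pb DMSO replicate 3, or Pb GSK343 replicate 3), and the compared groups alone gave 386 in actB and 4 for the difference. Depth limits *Ccl6*, *Ccl9*, and *Cxcl16* in culture, at 0 to 23 reads per library.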
